A study of Mus musculus with 8 samples.

Results

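Long intergenic noncoding RNA (lincRNA) genes were followed across 8 ribosome profiling libraries from brains of mice at postnatal day 5. The set is every gene with at least 1 transcript that the deposited table annotates as lincRNA, each gene represented by its lincRNA transcript with the most reads after scaling for library size, which gave 3476 genes (5079 transcripts) of the 45578 genes (109463 transcripts) in the table. Of these, 2160 had no read in any library, 1316 had at least 1 read, 288 had 10 or more reads over the 8 libraries and 24 had 100 or more. In 33 of them a read was present in all 8 libraries. No lincRNA transcript had a coding length in the table, although 6 of the genes also have a transcript annotated as coding. RefSeq holds 1435 of the genes under the same symbol or a synonym, 189 of them among the 288, and lists 163 of those 189 as lncRNA and 14 as protein_coding.

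The study asked which messages are carried by ribosomes bound to SMN, the protein lost in spinal muscular atrophy (SMA), and how ribosome occupancy looks in a mouse model of severe SMA. Control littermates (Smn+/-; SMN2tg/0) gave 3 libraries of ribosome footprints pulled down with an antibody against SMN and 1 library pulled down with IgG as the measure of unspecific binding. SMA mice at an early symptomatic stage (Smn-/-; SMN2tg/0) gave 2 libraries made with RiboLace, which captures actively translating ribosomes on beads that carry a puromycin analogue, and 2 libraries from polysomes separated on sucrose gradients. All mice were of the Taiwanese line on a congenic FVB background, so the controls too had lost 1 murine Smn allele, and all carried 2 copies of the human SMN2 transgene on 1 allele. Tissue was snap-frozen whole brain, so a change in the number of cells of a type and a change in RNA per cell cannot be told apart. No SMA pull-down and no control RiboLace or polysome library was analysed here, and genotype and protocol therefore change together between the pull-downs and the polysomes.

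Long noncoding RNAs are capped and often spliced transcripts without a long open reading frame. Some stay in the nucleus, such as Malat1 and Xist, while others reach the cytoplasm, where ribosomes can engage short open reading frames and some transcripts first annotated as noncoding turned out to encode small proteins. Many are also hosts: snoRNAs are cut out of their introns, and microRNAs out of introns or exons. In brain the set includes the imprinted Meg3, Rian and Mirg transcripts and hosts of the neural microRNAs miR-124 and miR-9.

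For some hosts, though not for others, the reads counted were close in number to those that the same table counts for the microRNA genes in their loci. The mature microRNAs of 2 such hosts are therefore given here from RefSeq (GRCm38.p6), 5′ to 3′, with the seed (bases 2 to 8) in capitals. Within Mir17hg, the host of the miR-17 to miR-92a cluster on chromosome 14, plus strand, miR-17-5p at chr14:115043684-115043706 and miR-20a-5p at chr14:115044183-115044205 share 1 seed, and miR-19a-3p and miR-19b-3p share another. The microRNA of C130071C03Rik is miR-9-5p from the Mir9-2 gene, at chr13:83738821-83738843 on the plus strand.
miR-17-5p: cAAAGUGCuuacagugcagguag
miR-20a-5p: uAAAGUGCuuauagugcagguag
miR-18a-5p: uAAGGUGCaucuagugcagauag
miR-19a-3p: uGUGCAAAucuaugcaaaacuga
miR-19b-3p: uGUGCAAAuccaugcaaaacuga
miR-92a-3p: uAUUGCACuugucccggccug
miR-9-5p: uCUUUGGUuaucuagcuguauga

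With 1 transcript per gene, the libraries held 188721 to 348349 reads in the SMN pull-down, 320621 in the IgG pull-down, 69059 and 58362 with RiboLace and 1851185 and 2549758 on polysomes. A count of 0 allows up to 3 reads, which correspond to 8.61 to 15.9 reads per 1000000 library reads (CPM) in the SMN libraries, 43.4 and 51.4 CPM with RiboLace and 1.62 and 1.18 CPM on polysomes. SMN library 2 stood apart from the other SMN libraries: the chi-square per gene of their counts was 3.73 against library 1 and 3.61 against library 3, while libraries 1 and 3 gave 1.40. The RiboLace libraries are labelled biological replicates, but over 2768 genes their counts did not differ detectably beyond sampling noise (chi-square per gene 1.03, p = 0.103). Over 2115 protein-coding genes the chi-square per gene was 1.05 (p = 0.0497), and at this depth a biological spread could be missed. No SD is therefore given for this pair, and results are also given with the pair summed as 1 sample. Murine Smn1 had 22, 13 and 34 reads in the SMN libraries, 6 in IgG, 2 and 0 with RiboLace and 51 and 77 on SMA polysomes. The count covers the whole transcript, and reads from parts that the null allele retains or from human SMN2 cannot be told apart from it, so it does not check the genotype. All 7 neuronal markers were detected in each group, with summed levels of 5223 to 8095 CPM over the libraries. Red blood cell globin mRNAs (4 of 4 detected) summed to 3649 to 4301 CPM with RiboLace, 1703 to 2313 on polysomes, 1182 to 1547 in the SMN pull-down and 1079 in IgG, and of the liver list Apoa2 was at 0 in all libraries while Ttr, also made by choroid plexus, was not. Markers of the oligodendrocyte lineage (5 of 5 detected) summed to 200 CPM in IgG, 339 to 551 in SMN, 497 to 550 with RiboLace and 600 to 736 on polysomes. Microglial markers (4 of 4 detected) summed to 62.4 CPM in IgG, 83.2 to 170 in SMN, 154 to 159 with RiboLace and 215 to 229 on polysomes. The part of these differences in the results below was not tested.

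lincRNA genes took a larger share of the reads in all pull-down and RiboLace libraries than on polysomes. The share was 0.672%, 0.773% and 0.691% in the SMN pull-down, 1.17% in IgG (exact Clopper-Pearson 95% interval 1.14 to 1.21%, covering counting error only), 0.814% and 0.807% with RiboLace, and 0.256% and 0.269% on polysomes. The groups do not overlap. The mean with RiboLace was 3.09 times that on polysomes (0.810% against 0.262% ± 0.00895, SD, n = 2), and the SMN mean was 2.71 times that on polysomes (0.712% ± 0.0535, SD, n = 3). Exact two-sided permutation tests over libraries gave p = 0.333 and p = 0.2, and with so few libraries they could not go below 0.333 and 0.1. The IgG library, with no replicate, lay above every SMN library. Antisense genes were also lowest on polysomes, at 0.247% in SMN, 0.321% in IgG, 0.390% with RiboLace and 0.110% on polysomes, but RiboLace and not IgG was highest. Genes annotated processed_transcript, another noncoding class, were at 0.292% in SMN, 0.303% in IgG, 0.396% with RiboLace and 0.294% on polysomes. Their ratio to polysomes was 0.994 in SMN and 1.35 with RiboLace. Protein-coding genes took 69.5% in SMN, 64.5% in IgG, 68.4% with RiboLace and 89.9% on polysomes.

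A single gene, Gm26917, held 30.3%, 45.3% and 28.2% of the lincRNA reads in the SMN libraries and 34.7% in IgG. It is on the list of genes with rRNA-like sequence, and the sources used here do not say how reads with several matches were handled. Without it and the like gene Gm26870 the mean share was 0.462% in the SMN pull-down, 0.767% in IgG, 0.801% with RiboLace and 0.258% on polysomes, and the SMN to polysome ratio was 1.79 in place of 2.71. Polysome reads were led by a different gene, 6330403K07Rik, with 13.3% and 11.2% of the lincRNA reads. Gm26905 led in RiboLace library 1 and Malat1 in library 2, each with under 7% of the reads.

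**Figure D1:**
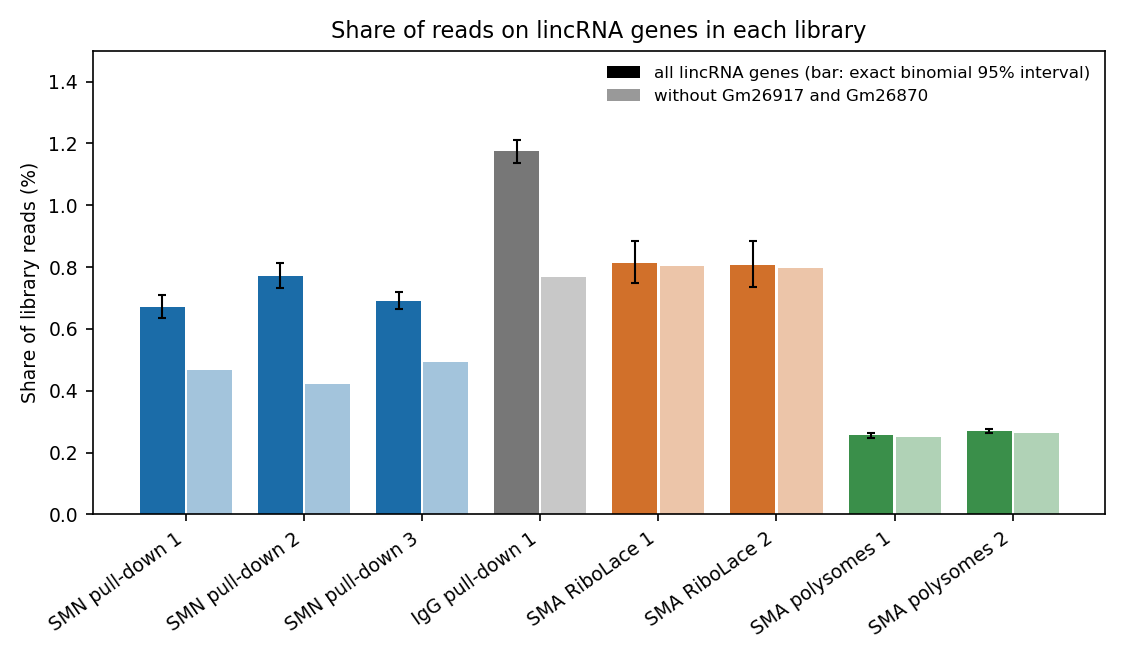
Share of each library's reads on lincRNA genes (dark bars, percent, with exact binomial 95% intervals that cover counting error only) and the same share without Gm26917 and Gm26870 (pale bars). The polysome libraries are at 0.256% and 0.269%, the RiboLace libraries at 0.814% and 0.807%, and the pull-downs drop most when the rRNA-like genes are left out.

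The number of lincRNA genes with a read followed depth: 192 to 381 in the SMN libraries, 457 in IgG, 209 and 204 with RiboLace and 750 and 902 on polysomes. Thinned to the depth of the smallest library, the SMN libraries were expected to hold 107, 87.8 and 116 such genes, the IgG library 146, the RiboLace libraries 187 and 204 and the polysome libraries 95.1 and 102. At equal depth the RiboLace libraries thus held reads on the most lincRNA genes and the polysome and SMN libraries on fewer. CPM divided by transcript length in kilobases allow levels of different genes to be compared. On this scale the leading mean in the SMN pull-down was 750 for Gm26917, followed by Gm29362 (327), Yam1 (284), Snhg20 (133) and Malat1 (118). With RiboLace it was Snhg20 at 971. On polysomes it was 6330403K07Rik at 214, followed by Gm17750 (75.1), Hist2h2bb (54.8) and 1700086L19Rik (54.4), with Malat1 at 7.79 and Meg3 at 4.45.

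**Figure D2:**
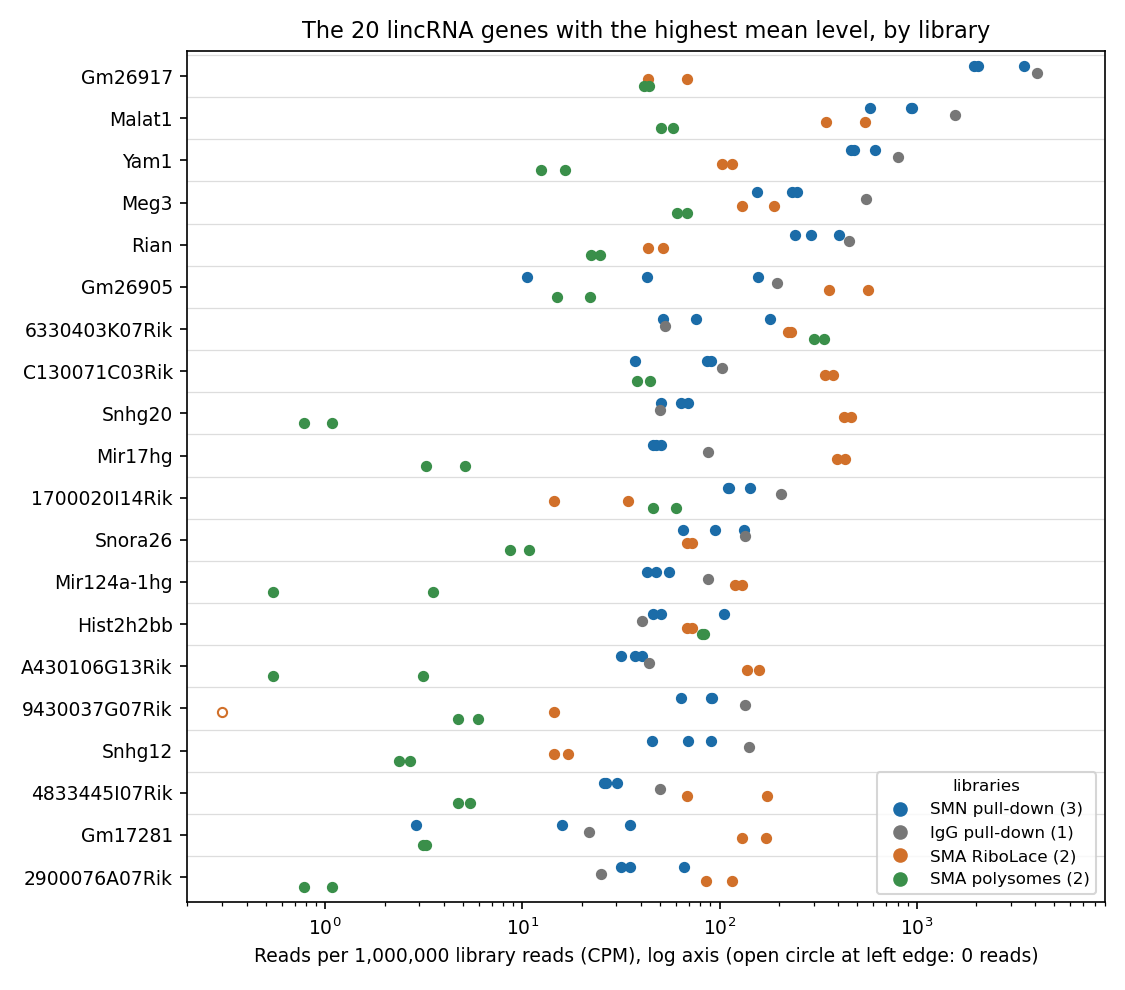
Reads per 1000000 library reads (CPM, log axis) of the 20 lincRNA genes with the highest level averaged over the 4 groups, 1 point per library; the open circle at the left edge is a library with 0 reads. Snhg20, Mir17hg and Mir124a-1hg are lowest on polysomes, and 6330403K07Rik is highest there.

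Of the 5 nuclear and X inactivation transcripts with 10 or more reads, Malat1 was the only one with enough reads to be tested against polysomes. Malat1, a nuclear speckle RNA, was at 948, 578 and 942 CPM in the SMN libraries, 1572 in IgG, 348 and 548 with RiboLace and 50.8 and 58.0 on polysomes. Every pull-down and RiboLace library lay above both polysome libraries, and IgG lay above all SMN libraries. Xist, the RNA that coats the inactive X chromosome, had 8, 2 and 1 reads in the SMN libraries, 22 in IgG, 2 and 0 with RiboLace and 5 and 1 on polysomes. Neat1, the scaffold of paraspeckles, had 3, 3 and 6 reads in SMN, 3 in IgG, 2 and 0 with RiboLace and 4 and 10 on polysomes, and Jpx and Ftx, both of the X inactivation centre, had 0 to 2 reads in each pull-down and RiboLace library. Ftx had 18 and 14 reads on polysomes.

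Of the imprinted transcripts of the Dlk1-Dio3 domain, which are expressed from the maternal allele, Meg3 was at 247, 233 and 155 CPM in the SMN libraries, 552 in IgG, 130 and 188 with RiboLace and 68.6 and 60.8 on polysomes. Rian, the host of a C/D snoRNA array, was at 242, 291 and 405 CPM in SMN, 452 in IgG, 43.4 and 51.4 with RiboLace (3 reads each) and 24.8 and 22.4 on polysomes. For both genes IgG was the highest library and polysomes the lowest. Mirg, the host of a large microRNA cluster, had 1, 3 and 8 reads in the SMN libraries, 14 in IgG and 1 to 3 in each of the others.

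Among snoRNA hosts, Snhg20 stood out by its RiboLace reads. It had 10, 12 and 24 reads in the SMN libraries, 16 in IgG, 32 and 25 with RiboLace and 2 and 2 on polysomes, although the polysome libraries were by far the deepest. Snhg12 had 9, 17 and 24 reads in SMN, 45 in IgG, 1 and 1 with RiboLace and 5 and 6 on polysomes, and Snhg17 had 7, 10 and 13 in SMN, 21 in IgG, 0 and 1 with RiboLace and 0 and 2 on polysomes. Both were above the polysome level in every pull-down library, and with RiboLace they stayed under the 3 reads that a count of 0 allows. Snhg8 (6 reads in IgG, none with RiboLace), Gas5 (6 in IgG), Snhg5 (10 and 12 on polysomes), Snhg4 and Snhg18 had at most 12 reads in any library.

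The SMN pull-down was first set against IgG, the comparison that asks what is bound beyond the background of the beads. No lincRNA gene was higher or lower at an adjusted p under 0.05 (edgeR quasi-likelihood test, Benjamini-Hochberg over 7264 genes). Of the 3476 genes, 28 had enough reads to be tested, and over all genes tested 0% were called higher and 0.0138% lower. At an unadjusted p under 0.05, 0 lincRNA genes were higher and 5 lower, where over all 7264 genes 131 were higher and 60 lower, and DESeq2 also called 0. The estimates lay mostly on the IgG side: 24 of 28 were negative, with a median log2 fold change of -0.67 against 0.06 over all genes tested. Every SMN library was below IgG for 21 of 28 genes (75.0%), where 23.3% of all tested genes showed this, and above IgG for 3 of 28 (10.7%), where 23.2% did. Of the 28, 4 passed the filter only through IgG, Gm27000 among them, and 2 only through SMN, so these counts are a description. IgG is a single library, for which the fit takes over the spread seen among the SMN libraries, and the part of its own composition in this shift was not tested.

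The smallest p-values were those of Gm27000, Meg3 and Gm26905. Gm27000 had 3, 6 and 6 reads in the SMN libraries and 34 in IgG, which edgeR fitted as a log2 fold change of -2.32 with a standard error of 0.61 (adjusted p = 0.267). Meg3 gave -1.38 ± 0.43 (adjusted p = 0.661), and Gm26905, with 31, 2 and 15 reads against 63, gave -1.52 ± 0.51 (adjusted p = 0.876). All SMN libraries lay below IgG for each of the 3 genes, none past the test. Snhg20 (0.31), 2900076A07Rik (0.90) and Hist2h2bb (0.70) had every SMN library above IgG, also short of the test. Without SMN library 2, which stood apart, 2 SMN libraries were left against 1 IgG library, and of 7887 genes tested edgeR called 2 higher and 8 lower. Of the 30 lincRNA genes among them, 4 were called lower: Gm26917 (log2 fold change -1.07, adjusted p = 4.27e-07), Meg3 (-1.54, adjusted p = 3.12e-06), Gm27000 (-2.69, adjusted p = 0.000355) and Malat1 (-0.77, adjusted p = 0.0434). No lincRNA gene was called higher there.

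RiboLace against polysomes compared capture of active ribosomes with sedimentation in the same genotype. Of 71 lincRNA genes tested, 24 were higher with RiboLace and 0 lower (edgeR, adjusted p under 0.05), while 5.41% of all 13315 genes tested were called higher and 4.17% lower. The median log2 fold change was 0.64, against -0.35 over all genes tested and -0.49 over protein-coding genes. These counts cannot be read as support: 27 of the 71 passed the filter only through the RiboLace libraries and 4 only through polysomes. At this depth polysome reads are few for many of them, and 18 of the 24 were called under every alternative that tested them. Among the 24, only Gm26905, Malat1, C130071C03Rik, Yam1, Snora26 and Meg3 reached the filter level in a polysome library too. Meg3 lost its call under 5 of 14 alternatives, with each single library left out in turn and in the fit blocked by replicate number. Snora26, Miat, Mir99ahg, 4930435H24Rik and 4833445I07Rik lost theirs with a RiboLace library left out. Summing the RiboLace libraries or leaving out 1 library leaves a group with 1 sample, so only effect sizes are given. With the pair summed, the median log2 fold change was 0.50 over 148 lincRNA genes and -0.24 over all genes. Without RiboLace library 1 or 2 it was -0.85 or -0.34 over 134 lincRNA genes, beside -0.70 or -0.52 over all genes. Without polysome library 1 or 2 it was 5.11 or 4.74 over 10 lincRNA genes, beside -0.05 or -0.03.

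Snhg20 had the largest estimate, 8.93 ± 0.49 on the log2 scale (edgeR adjusted p = 2.18e-72), from 57 reads with RiboLace and 4 on polysomes. Their ratio per library read was 492, with a 95% counting interval of 182 to 1868. Mir17hg was at 434 and 394 CPM with RiboLace and 3.24 and 5.10 on polysomes, a log2 fold change of 6.71 ± 0.42. Gm26905, with no RefSeq match, was at 565 and 360 CPM against 22.1 and 14.9 (4.85 ± 0.34), and Malat1 differed by 3.16 ± 0.28. In each of these genes both RiboLace libraries lay above both polysome libraries. Snhg20 and Mir17hg passed the filter only through RiboLace, so the direction of their calls is no independent result.

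The remaining large estimates rested on few polysome reads. Gm14635 had 5 and 7 reads with RiboLace and 2 and 1 on polysomes, a ratio of 138 with a counting interval of 37.3 to 763. 2900076A07Rik had 8 and 5 against 2 and 2, Gm26871 8 and 5 against 1 and 5, A430106G13Rik 11 and 8 against 1 and 8, Gm12505 9 and 7 against 4 and 4, and RP23-381I16.6 7 and 5 against 4 and 3. Their log2 fold changes lay between 5.95 and 6.80. Mir124a-1hg, with 9 and 7 against 1 and 9, gave 5.88 ± 0.55. Gm17281, 6720427I07Rik, 4833445I07Rik, B230208H11Rik, RP23-114L5.4, 4930435H24Rik, 5330426P16Rik (Dubr in RefSeq), Mir99ahg and Miat were higher by 3.38 to 5.66, Yam1 by 3.04, Snora26 by 3.03 and Meg3 by 1.44. Gm26917, which led the pull-downs, had 3 and 4 reads with RiboLace and 43.4 and 68.5 CPM against 43.8 and 41.6 on polysomes (0.52 ± 0.63, adjusted p = 0.712).

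**Figure D3:**
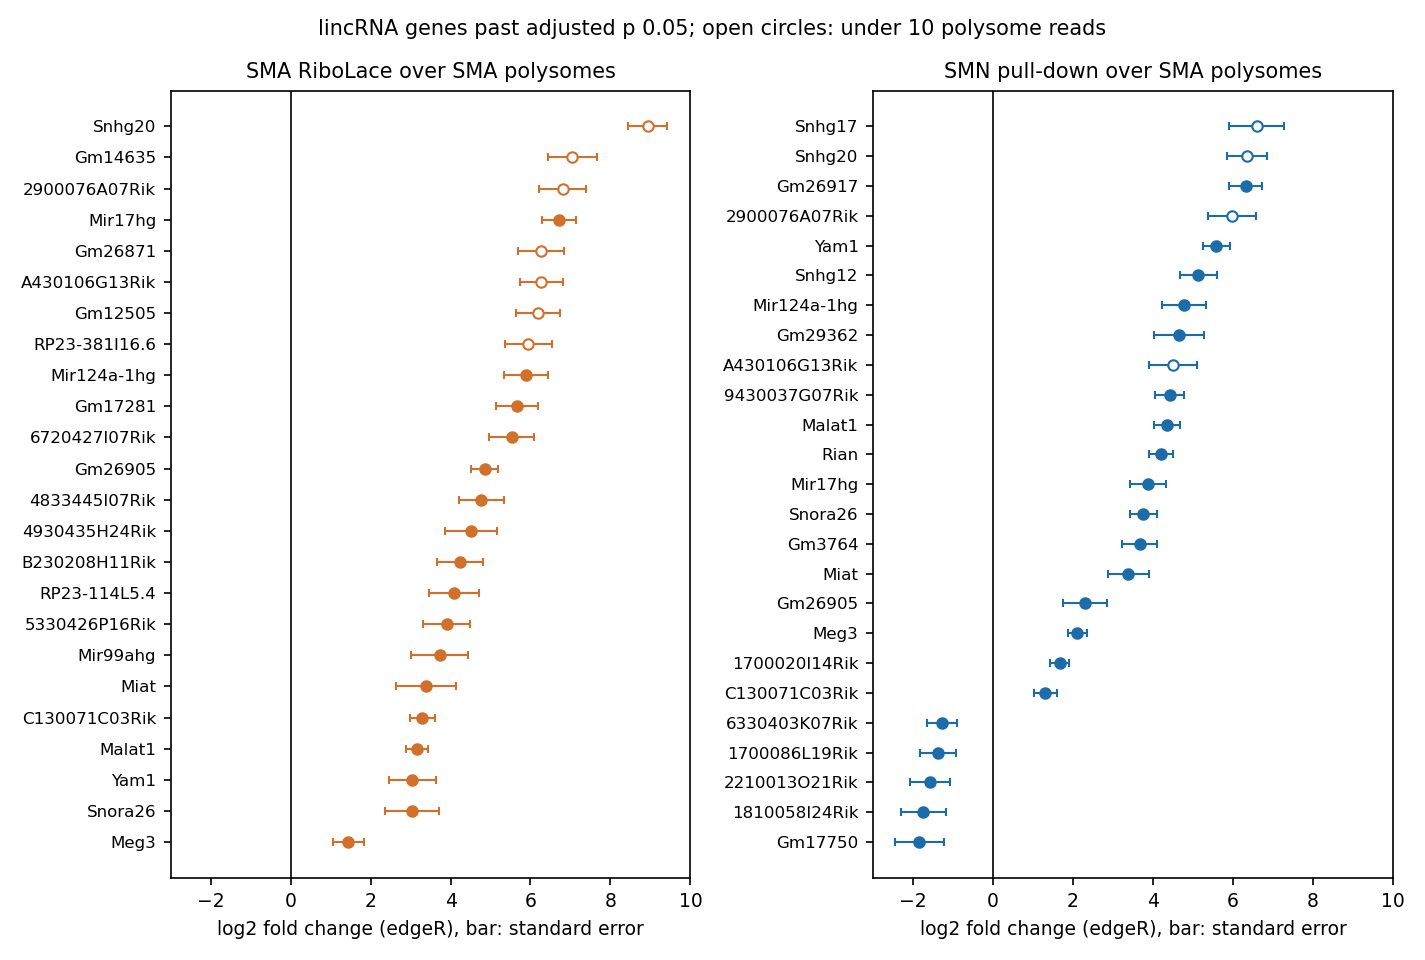
edgeR log2 fold changes with standard errors of the lincRNA genes past an adjusted p of 0.05, for RiboLace over polysomes (left, 24 genes) and the SMN pull-down over polysomes (right, 25 genes). Open circles mark genes with under 10 reads on polysomes, whose estimates depend on few reads; both panels share the polysome libraries.

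The SMN pull-down differed from SMA polysomes in both genotype and protocol, which cannot be told apart. Of 26 lincRNA genes tested, 20 were higher in the pull-down and 5 lower (edgeR, adjusted p under 0.05), where 21.2% of all 9039 genes tested were called higher and 15.4% lower. The median log2 fold change was 3.82 against -0.07 over all genes. Here too 15 of the 26 passed the filter only through the SMN libraries and 4 only through polysomes, so the counts are a description. Scaling by library totals moved the median over all genes from -0.07 to -0.51 and the calls over all genes from 1918 higher and 1389 lower to 1312 and 3468, while the lincRNA calls stayed at 20 and 5. Scaling on protein-coding genes moved that median to 0.16 and left 20 higher and 1 lower.

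Gm26917 was at 2037, 3503 and 1949 CPM in SMN and 43.8 and 41.6 on polysomes, a log2 fold change of 6.32 ± 0.41 (edgeR adjusted p = 6.42e-09). Yam1 was at 479, 615 and 465 CPM against 12.4 and 16.5 (5.59 ± 0.34, adjusted p = 3.31e-09). Malat1 differed by 4.36 ± 0.33, Rian by 4.20 ± 0.30 and Meg3 by 2.11 ± 0.24. In each of these genes all SMN libraries lay above both polysome libraries, and so did the IgG library. Yam1 and Rian passed the filter only through the SMN libraries.

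With 1 transcript per gene, the snoRNA hosts tested were Snhg20 (6.35 ± 0.51), Snhg12 (5.14 ± 0.45) and Snhg17, and all were higher. Each passed the filter only through the SMN libraries, so this direction is no independent result. With counts summed over all transcripts of a gene, edgeR called 30 of 47 lincRNA genes higher in SMN and 4 lower. Over all 11982 genes tested there, 1803 were higher and 885 lower. Snhg8, Gas5, Snhg4, Snhg5 and Dancr were then also higher. Of these 5, Gas5, Snhg5 and Dancr were higher with RiboLace too, where that setting called 32 of 100 higher and 0 lower. Over all 14935 genes tested with RiboLace, 843 were higher and 229 lower. The filter on low counts applied here too, so these counts are a description. Snhg17 had 30 reads in the SMN libraries and 2 on polysomes, a ratio of 89.8 with a counting interval of 22.8 to 775. The lincRNA gene that the table lists under the snoRNA symbol Snora26 (3.76 ± 0.33), 9430037G07Rik (4.42 ± 0.35) and 2900076A07Rik (5.97 ± 0.59) were higher as well. The microRNA hosts Mir124a-1hg (4.78 ± 0.56) and Mir17hg (3.88 ± 0.44) were higher, as were Gm29362 (4.66), A430106G13Rik (4.50) and Gm3764 (3.67). Every one of these, like Snora26, 9430037G07Rik and 2900076A07Rik, passed the filter only through the SMN libraries.

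Of the neural list, 3 genes were tested and all were higher. 1700020I14Rik, which is RefSeq's Oip5os1 and known as Cyrano, an RNA that directs the decay of miR-7, was at 111, 111 and 144 CPM in SMN, 206 in IgG, 14.5 and 34.3 with RiboLace and 45.9 and 60.4 on polysomes (1.66 ± 0.24 over polysomes). Both pull-down groups lay above polysomes and the RiboLace libraries below them, the latter from 1 and 2 reads. Miat differed by 3.38 ± 0.50 and C130071C03Rik by 1.31 ± 0.30, the latter with SMN library 2 at 37.1 CPM, below the polysome libraries at 44.3 and 38.0. Gm26905 (2.30 ± 0.55) also overlapped, with 156, 10.6 and 43.1 CPM against 22.1 and 14.9. Miat and Gm26905 passed the filter only through the SMN libraries. The 2 genes C130071C03Rik and Gm26905 lost their call under some alternatives, the other 18 under none.

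The 5 genes lower in SMN than on polysomes are 19.2% of the 26 tested, beside 15.4% over all genes, and included 3 that RefSeq lists as protein_coding. All 4 genes that passed the filter only through polysomes are among them: 2210013O21Rik, 1700086L19Rik, 1810058I24Rik and Gm17750. The direction of these calls is therefore no independent result. 6330403K07Rik, which RefSeq lists as protein_coding, had 628 and 767 reads on polysomes (339 and 301 CPM), 232 and 223 CPM with RiboLace, 75.6, 180 and 51.7 CPM in SMN and 53.0 in IgG. It was lower in SMN than on polysomes by a log2 fold change of -1.28 ± 0.38 (edgeR adjusted p = 0.0174). 2210013O21Rik, named Nbdy in RefSeq, encodes a small protein of the mRNA decapping machinery, and had 1, 1 and 5 reads in SMN, 3 in IgG, 1 and 1 with RiboLace and 65 and 106 on polysomes (-1.58 ± 0.50, adjusted p = 0.0232). 1810058I24Rik, also protein_coding in RefSeq, had 2, 1 and 2 reads in SMN, 4 in IgG, 2 and 0 with RiboLace and 63 and 74 on polysomes (-1.74 ± 0.56, adjusted p = 0.0256). The other 2 genes called lower, both lncRNA in RefSeq, were 1700086L19Rik (76 and 116 polysome reads, -1.38 ± 0.44) and Gm17750 (68 and 109 polysome reads and 0, 0 and 6 in SMN, -1.85 ± 0.62). All 3 SMN libraries lay below both polysome libraries for each of the 5 genes, as for 50.5% of all genes tested. None of the 5 kept its call under every alternative: DESeq2 called 0 of them, and scaling on protein-coding genes 1.

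Between RiboLace and polysomes none of the 5 passed the test, with log2 fold changes of RiboLace over polysomes of -0.33 for 6330403K07Rik, -1.14 for 2210013O21Rik, -0.83 for 1810058I24Rik, -0.73 for 1700086L19Rik and -2.18 for Gm17750. Hist2h2bb, a histone H2B gene that RefSeq lists as protein_coding (H2bc18), had 155 and 209 reads on polysomes and differed little in its estimate in either comparison (0.04 in SMN and -0.07 with RiboLace, neither past the test). Histone genes are near-identical copies, so its count is uncertain. Tunar, which is reported to encode a small protein in neural cells, had 50 and 57 reads on polysomes, 7, 2 and 5 in SMN, 1 in IgG and 0 and 2 with RiboLace. Tunar was tested only between RiboLace and polysomes (-0.48 ± 1.09, adjusted p = 0.866).

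Further neural and host genes were read mostly on polysomes, where depth was greatest. Pantr1, which neighbours Pou3f3, had 36 and 49 reads there and at most 2 elsewhere. Mir124-2hg had 18 and 38 reads on polysomes and at most 2 elsewhere, in contrast to Mir124a-1hg, its counterpart on chromosome 14. A330008L17Rik had 11 and 21 reads on polysomes and none in the other libraries, and Rmst, Pvt1 and Lhx1os had at most 6 in any library. Mir99ahg had 6 and 11 reads on polysomes and 3 and 3 with RiboLace. Per library read it was higher with RiboLace, at 43.4 and 51.4 CPM against 3.24 and 4.31 on polysomes.

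Of the 14 genes with 10 or more reads that RefSeq lists as protein_coding, some of them matched only through an older synonym, the pooled level was lower in SMN than on polysomes for 12 and lower with RiboLace for 13. Of the 163 that RefSeq lists as lncRNA, it was lower in SMN for 108 and lower with RiboLace for 90. Selection at 10 reads in total favours genes read on the deep polysome libraries, and over all genes tested the edgeR estimate was also negative for 4776 of 9039 in SMN and 8567 of 13315 with RiboLace. Among the genes tested against polysomes, the protein_coding entries gave 0 higher and 3 lower of 4 in SMN and 0 higher and 0 lower of 6 with RiboLace. The lncRNA entries gave 14 higher and 2 lower of 16 in SMN and 15 higher and 0 lower of 47 with RiboLace. Over all genes tested, 21.2% were called higher and 15.4% lower in SMN, and 5.41% and 4.17% with RiboLace. Of the 26 lincRNA genes tested in SMN, 15 passed the filter only through SMN and 4 only through polysomes. With RiboLace 27 of 71 passed only through RiboLace and 4 only through polysomes, so these counts are a description.

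Of the 24 genes higher with RiboLace and the 20 higher in SMN, 12 were the same: 2900076A07Rik, A430106G13Rik, C130071C03Rik, Gm26905, Malat1, Meg3, Miat, Mir124a-1hg, Mir17hg, Snhg20, Snora26 and Yam1. They make up 50.0% of the first list and 60.0% of the second. The other 12 of the first list had too few reads to be tested in SMN, and 5 of the other 8 of the second too few to be tested with RiboLace. Both comparisons use the same polysome libraries, so this overlap is a count and no result. In the IgG library the same genes were also above polysomes, at 20.2 times for Mir17hg, 54.9 times for Snhg20 and 10.9 times for Gm26905. These ratios are per library read, with the polysome libraries pooled.

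Many of these genes share their locus with small RNA genes. Among the 189 genes with 10 or more reads and a RefSeq locus, 28 had a miRNA, snoRNA, scaRNA or snRNA gene of the table within the locus or 1000 bases of it, and in 19 of the 28 the small RNA genes held at least 50% as many reads as the host. Mir17hg had 30 and 23 reads with RiboLace, and the 6 microRNA genes of its cluster together 29 and 21. Of these, Mir17 had 9 and 7 reads and Mir20a, which shares its seed, 9 and 5, and Mir19b-1 5 and 3, Mir92-1 4 and 5, Mir19a 2 and 0 and Mir18 0 and 1. In the SMN libraries the host had 10, 9 and 16 reads and the cluster 9, 7 and 15, in IgG 28 and 27, and on polysomes 6 and 13 against 8 and 14. Host and cluster thus had nearly equal counts in every library.

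Mir124a-1hg had 9 and 7 reads with RiboLace, and Mir124a-1 had 9 and 7 as well. In the pull-downs the host had more reads than Mir124a-1: 11, 9 and 15 against 3, 3 and 9 in SMN and 28 against 18 in IgG. C130071C03Rik had 26 and 20 reads with RiboLace against 24 and 18 on Mir9-2, 18, 7 and 30 against 14, 6 and 23 in SMN, and 33 against 21 in IgG. On polysomes it had 82 and 97 reads, while Mir9-2 had 4 and 8. Most of the host's polysome reads thus had no counterpart on Mir9-2, unlike its RiboLace reads. 2900076A07Rik had 8 and 5 reads with RiboLace against 11 and 5 on Mir1839, which the table gives as a scaRNA.

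Other microRNA hosts had far fewer reads than the microRNA genes of their loci with RiboLace. Over both RiboLace libraries Mir124-2hg had 2 reads against 18 on Mir124a-2, Mirg 3 against 39 and Ftx 0 against 15. AI854517, in whose locus Mir9-3 lies, had 4 against 41, and 2610203C20Rik 3 against 36 on Mir100, Mirlet7a-2 and Mir125b-1; these 2 genes were chosen after their values were seen. The near-equal counts of Mir17hg, Mir124a-1hg and C130071C03Rik thus do not hold for microRNA hosts in general.

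Snhg12 had fewer reads than the 4 snoRNA genes in its locus in every pull-down and polysome library, with 45 against 103 in IgG and 24 against 81 in SMN library 3. Rian had 48, 55 and 141 reads in SMN against 34, 41 and 79 on 8 small RNA genes, of which DQ267100 had 19, 22 and 47. Meg3 was of another kind in the pull-down and polysome libraries. There the 3 microRNA genes in its locus had 2 to 7 reads in each library, against 44 to 177 for the host. With RiboLace they had 1 and 4 reads, against 9 and 11 for the host. Whether the same reads were counted for host and small RNA cannot be told from the counts, and strand and exon position were not checked. Of the lincRNA genes tested, 10 of 71 with RiboLace and 8 of 26 in SMN have a small RNA gene counted in the table within their RefSeq locus. Over all genes tested, 5.41% were called higher with RiboLace and 21.2% in SMN. Without the 10 and 8, 18 lincRNA genes were called higher with RiboLace and 12 in SMN. These still include 8 and 5 genes with no RefSeq match, whose loci were not looked at, as well as Snhg20, Snora26, Snhg17 and 9430037G07Rik, whose RefSeq loci hold a small RNA gene that was not matched in the table.

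**Figure D4:**
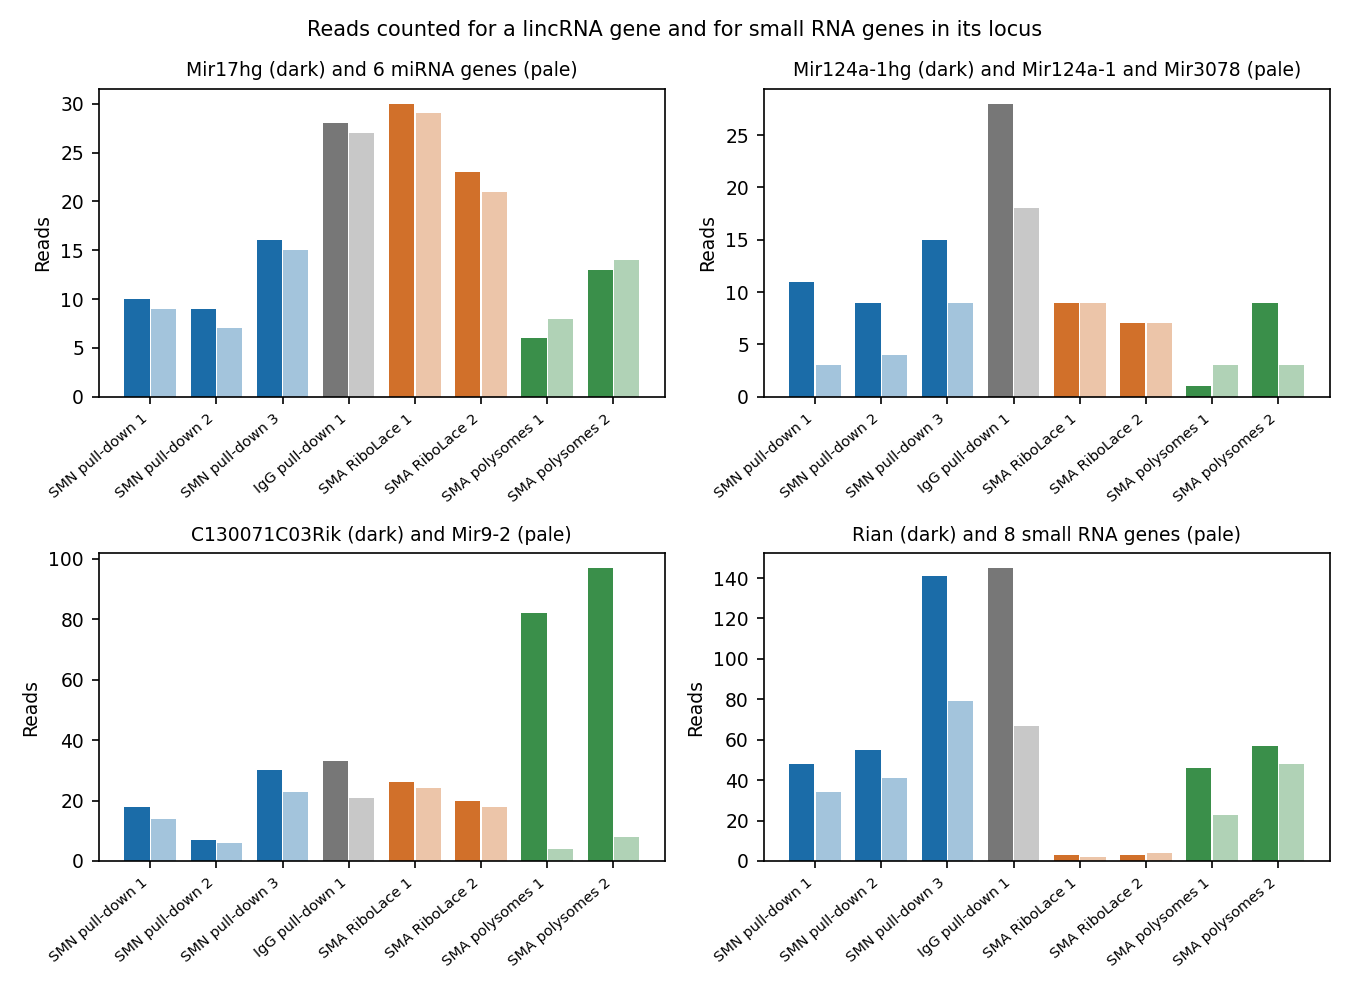
Reads per library counted for a lincRNA gene (dark bars) and for the small RNA genes in its locus together (pale bars), for Mir17hg, Mir124a-1hg, C130071C03Rik and Rian; each panel has its own axis. Host and microRNA counts are nearly equal for Mir17hg in all libraries, and for C130071C03Rik only on polysomes are they far apart (82 and 97 against 4 and 8).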

How the data were processed

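Footprint reads per Ensembl transcript were deposited as 1 table of raw counts with 8 columns, which were matched to the samples by the column names. The submitters' processing notes name GRCm38.p4 and the tools Trimmomatic 0.36, SAMtools and Bowtie2 2.2.6. Counting rules, strand and the treatment of reads with several matches are not stated there. CPM are reads per 1000000 of a library's reads on 1 transcript per gene. Genes were tested on the deposited counts with edgeR 4.0.16 in R 4.3.3 (TMM, filterByExpr with a minimum count of 10, robust quasi-likelihood test, two-sided, Benjamini-Hochberg over all genes tested, threshold 0.05). Standard errors were derived from the log2 fold change and its F statistic. Shares were compared by exact permutation. Libraries of a group are labelled biological replicates, but whether libraries share animals is not stated. On simulated counts the test recovered 28 of 100 genes changed 4-fold for SMN against IgG, 41 of 100 for RiboLace and 87 of 100 for SMN against polysomes, with 2, 6 and 10 false calls. Replicate numbers were not used as pairs in the main fits, because the labels do not say that a number marks a shared animal. The correlation of same-numbered deviations was 0.01 for RiboLace and polysomes and 0.05 for SMN and polysomes, over 2 pairs each. With so few pairs, and RiboLace counts that differed little beyond sampling noise, this cannot decide whether samples are paired. Members, gene lists and the rule for named genes (listed genes with 10 or more reads, the 20 with the highest mean CPM, up to 10 called genes per direction or the 3 with the smallest p) were chosen with earlier results of these data known.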

Additional observations from a re-analysis of the deposited data

How the results depend on the processing

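Under the alternatives run, none of the lincRNA log2 fold changes named as called reversed. For RiboLace over polysomes, 24 genes were called higher and 0 lower by edgeR. The count was 43 of 1150 tested with no filter on low counts and 8 to 16 with 1 library left out, where the lone library is assumed to vary like the others. Over all 27145 genes tested for RiboLace with no filter, 919 were higher and 840 lower. The share of lincRNA genes called higher was then close to that over all genes. For SMN over polysomes, 20 were higher and 5 lower. With no filter, 53 of 1198 tested were higher and 11 lower, beside 2426 and 2330 of all 27964 genes tested. Both shares were then below those over all genes. With a minimum count of 50, 5 of 6 were higher and 1 lower, beside 564 and 452 of all 2038 genes tested. DESeq2 called 0 lower, and scaling on protein-coding genes left 1 lower. Without SMN library 2, 69 lincRNA genes were tested in place of 26, with 32 higher and 8 lower. Over all 14008 genes tested there, 3016 were higher and 2325 lower, so calls rose over all genes too. Leaving out 1 library gave 19 to 32 higher and 0 to 8 lower, and the upper ends (32 and 8) both came from leaving out SMN library 2. For SMN against IgG, 0 to 4 were lower with 1 SMN library left out. A fit with the replicate number as a block gave 23 higher and 0 lower of 71 for RiboLace, beside 598 and 161 of all 13315 genes. For SMN libraries 1 and 2 over polysomes it gave 26 higher and 1 lower of 64, beside 1085 and 121 of all 13654 genes. SMN and IgG share 1 number, so no block could be fitted there. Chosen after seeing the data, leaving out genes with a small RNA gene counted in the table in their RefSeq locus gave 12 higher in SMN over polysomes. That left out 8 of the 26 genes tested, and 21.2% of all genes tested were called higher. Shares on lincRNA moved from 0.712%, 1.17%, 0.810% and 0.262% (SMN, IgG, RiboLace, polysomes) to 0.510%, 0.877%, 0.563% and 0.200% over all transcripts as deposited. Without the rRNA-like genes the first 3 were 0.462%, 0.767% and 0.801%, and without the gene with most reads 0.462%, 0.767% and 0.805%. The causes were not tested. Depth limits RiboLace most, with 3 reads at 43.4 and 51.4 CPM, and IgG has no replicate.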
